A study of Homo sapiens with 4 samples.

Results

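BSCL2 and MFSD2A are 2 genes of lipid handling that were listed as lower after PCAF knockdown in HCT116, an established cell line from a human colorectal carcinoma. Each was found by its symbol in the authors' deposited table, which lists genes as up or down, and each had 1 probe set there, listed with a single symbol. The older symbol of MFSD2A, MFSD2, was also searched for and had no line. They are thus 2 of the 759 probe sets named in that table and 2 of the 33297 probe sets measured on each array. The tested cells, called shPCAF here, were HCT116 cultures transfected with a short hairpin RNA (shRNA) against PCAF and labelled as a PCAF knock-down. The control cells, called shControl, were HCT116 cultures transfected with a control shRNA and labelled wild-type. All cultures were growing asynchronously, each group had 2 arrays of total RNA, and neither the time after transfection nor any selection of clones is stated in the sources used here. PCAF, now named KAT2B, is a lysine acetyltransferase and transcriptional coactivator. Its own level was not analysed here, because no probe set is named for it, so the knockdown has no check in these values.

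BSCL2 encodes seipin, a protein of the endoplasmic reticulum membrane that sits where lipid droplets, the cell's stores of neutral lipid, bud from that membrane. Loss of seipin causes congenital generalized lipodystrophy in people, and dominant changes in the same protein cause motor neuron disease. MFSD2A encodes a sodium-dependent transporter of the major facilitator superfamily that carries lysophosphatidylcholine with long-chain fatty acids, including the omega-3 fatty acid DHA, across the plasma membrane, and is best known from the blood-brain barrier. Seipin thus acts in lipid storage and MFSD2A in lipid uptake.

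The genes lie on different chromosomes, and none of 8 short motifs was matched exactly upstream of both. RefSeq (GRCh38.p14) gives 3 transcription starts for BSCL2 and 1 for MFSD2A, and the 250 bases before each start were searched on both strands for 8 short motifs. These were the CCAAT box (CCAAT), the GC box (GGGCGG), the TATA box (TATAAA), the E-box (CACGTG), the core of the cAMP response element (TGACGT), the cell cycle homology region (CHR, TTTGAA), an ETS core (CCGGAAG) and the core bound by the zinc finger factor YY1 (GCCATNTT). The motifs were chosen with the sequences in view. The windows printed here are those before the outermost start of each gene. They are chr11:62709538-62709787 (minus strand) for BSCL2 and chr1:39954895-39955144 (plus strand) for MFSD2A, each written 5′ to 3′ along the gene's strand with motif matches in capitals.
BSCL2 outermost start: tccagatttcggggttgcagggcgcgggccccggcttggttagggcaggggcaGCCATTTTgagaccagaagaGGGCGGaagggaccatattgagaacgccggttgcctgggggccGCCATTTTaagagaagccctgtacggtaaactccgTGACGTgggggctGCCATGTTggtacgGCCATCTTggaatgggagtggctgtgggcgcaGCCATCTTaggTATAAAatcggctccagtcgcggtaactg
MFSD2A start: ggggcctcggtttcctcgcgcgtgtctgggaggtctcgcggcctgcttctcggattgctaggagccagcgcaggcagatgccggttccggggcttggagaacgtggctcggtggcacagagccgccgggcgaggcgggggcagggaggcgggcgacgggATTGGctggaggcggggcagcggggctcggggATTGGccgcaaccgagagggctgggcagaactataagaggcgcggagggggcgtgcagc

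The window before the outermost BSCL2 start held 5 copies of the YY1 core, all on the gene's strand, with their first bases 197, 134, 86, 72 and 40 bases upstream of the start. Of the 35116 windows of the same length before all RefSeq starts, 3.86% held the YY1 core at all. There were 3 windows with 5 or more copies, this BSCL2 window included. The motifs were chosen with the sequences in view, so these counts do not measure how unusual the window is. The same BSCL2 window held 1 TATA box beginning 29 bases upstream of the start, 1 GC box and 1 core of the cAMP response element. These are found in 10.7%, 42.6% and 7.10% of all windows. The window before the innermost BSCL2 start, which lies inside the gene, had none of these apart from the GC box, of which it held 5 copies, 2 of them sharing a base. A window with 5 or more GC boxes occurred before 4.15% of all starts. The window before the middle BSCL2 start had no match to any of the 8 motifs.

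The MFSD2A window held 2 CCAAT boxes, both on the opposite strand, beginning 91 and 59 bases upstream of the start, and none of the other 7 motifs. At least 1 CCAAT box is found in 32.0% of all windows and 2 or more in 9.53%. No motif was thus matched exactly both before the MFSD2A start and before any BSCL2 start. The MFSD2A window does hold TATAAG, 1 letter from the TATA box, which was not counted as a match. The share of G and C was 72.0% in the MFSD2A window and 59.6%, 64.4% and 71.6% in the BSCL2 windows from the outermost to the innermost start, against a median of 58.0% over all windows. A match to these letters is a description of the sequence and not a measurement of binding.

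BSCL2, the seipin gene, was lower on both shPCAF arrays. Its log2 signals were 8.14 and 8.32 on the shPCAF arrays, against 9.58 and 9.53 on the shControl arrays. The groups did not overlap, and the 2 shControl arrays lay closer together than the 2 shPCAF arrays. BSCL2 averaged 8.23 ± 0.13 in shPCAF cells and 9.55 ± 0.03 in shControl cells (SD, n = 2 each). The log2 difference was -1.32 ± 0.09 (moderated SE), which makes the shPCAF signal 40.0% of the shControl signal, a 2.50-fold difference. Taking each shPCAF array against each shControl array, the difference ranged from 2.31-fold to 2.70-fold lower.

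MFSD2A, the lysophosphatidylcholine transporter gene, was lower on both shPCAF arrays by nearly the same amount. Its log2 signals were 8.23 and 8.41 on the shPCAF arrays, against 9.62 and 9.69 on the shControl arrays. Again the groups did not overlap and shPCAF replicate 1 was the lowest array. MFSD2A averaged 8.32 ± 0.13 in shPCAF cells and 9.65 ± 0.05 in shControl cells (SD, n = 2 each). The log2 difference was -1.33 ± 0.09 (moderated SE), which makes the shPCAF signal 39.7% of the shControl signal, a 2.52-fold difference. Over the pairs of single arrays it ranged from 2.31-fold to 2.74-fold lower. Less RNA in every cell and fewer cells with the RNA cannot be told apart in total RNA of a culture.

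**Figure D1:**
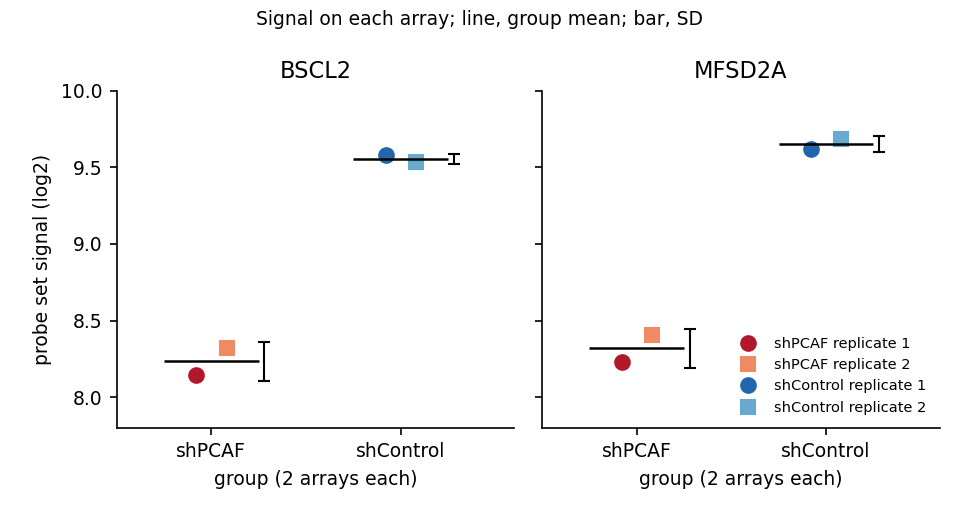
The log2 probe set signal (vertical axis) of BSCL2 and MFSD2A on each of the 4 arrays, with shPCAF left of shControl, a line at each group's mean and a bar for its SD (n = 2). For both genes the shPCAF arrays sit between 8.14 and 8.41 and the shControl arrays between 9.53 and 9.69, with no overlap.

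These differences carry no test, because the 2 genes were taken from a table selected on this same contrast and these same arrays. The values that chose them are those of the authors' deposited table, which lists BSCL2 as down with a value headed fold change of 2.82 and a p-value of 0.0315, and MFSD2A as down with 2.85 and 0.0223. The listed value is other than the fold: over the lines of the authors' deposited table its median ratio to the absolute log2 difference of the arrays was 2.14, so the folds above were computed from the log2 signals. Among the 218 probe sets with a single symbol that the table lists as down, MFSD2A had the fall of rank 8 and BSCL2 that of rank 9. The smallest absolute log2 difference of any probe set in the table was 0.70.

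At a limma p below 0.05 after Benjamini-Hochberg adjustment over all 33297 probe sets, 5.85% of them were called lower in shPCAF cells and 7.05% higher, 12.9% in all. Both BSCL2 and MFSD2A are among those called lower, which their choice from the table made likely. Both shPCAF arrays lay below both shControl arrays for 36.0% of all probe sets and above both for 23.1%, so groups without overlap are common on these arrays. A log2 difference of -1.3 or lower was found in 0.129% of all probe sets. That cut lies close to the differences of BSCL2 and MFSD2A themselves, -1.32 and -1.33. Both genes came from a table selected on this contrast, so the share is a description and no test. With either shControl array left out no probe set passed limma's test, and the lowest adjusted p was 0.0767 without the first and 0.0839 without the second. Before adjustment, limma's p was below 0.05 for 6848 and 6849 probe sets in these fits. The calls numbered 4294 over all arrays, 1933 with shPCAF replicate 1 left out and 2363 with shPCAF replicate 2 left out. The sizes of the 2 falls stayed between -1.23 and -1.41 for BSCL2 and between -1.24 and -1.42 for MFSD2A whichever array was left out.

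The pair had similar profiles over the 4 arrays, but not the same order of arrays. From shControl replicate 1 to shControl replicate 2, BSCL2 changed by -0.05 and MFSD2A by 0.07. With each probe set's own mean over the 4 arrays taken away, BSCL2 lay at -0.75 and -0.57 on the shPCAF arrays, against 0.68 and 0.64 on the shControl arrays. MFSD2A lay at -0.76 and -0.58 on the shPCAF arrays, against 0.63 and 0.70 on the shControl arrays. The profiles were closest on the shPCAF arrays and differed most on shControl replicate 2, by 0.064. The log2 differences of the genes differed by -0.011 (MFSD2A minus BSCL2), a gap smaller than the moderated SE of either.

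Likeness of profile was measured as the Euclidean distance between such centred log2 profiles over the 4 arrays, and the 4 nearest probe sets with a single symbol were taken for each gene. MFSD2A was the nearest to BSCL2, at a distance of 0.084, and no unnamed probe set was nearer. BSCL2 in turn was the third nearest to MFSD2A. ANAPC5, part of the anaphase-promoting complex that ends mitosis, was near to both, at 0.085 from BSCL2 and 0.026 from MFSD2A. Its probe set is among 4201 with low, nearly consecutive identifiers whose nature the files leave undescribed. The other genes nearest to BSCL2 were KIF20A, a kinesin of late mitosis, at 0.093, and GINS2, a subunit of the replicative helicase, at 0.11. The others nearest to MFSD2A were COMMD4, a COMM domain protein, at 0.046, and TUBA4A, an alpha-tubulin, at 0.085. All 5 of these genes were lower in shPCAF cells, from 2.32-fold for GINS2 to 2.53-fold for COMMD4. The contrast between the groups dominates the profiles of probe sets with falls as large as these, so the distances describe like sizes of change. That these 5 genes were lower follows from choosing them by their distance.

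**Figure D2:**
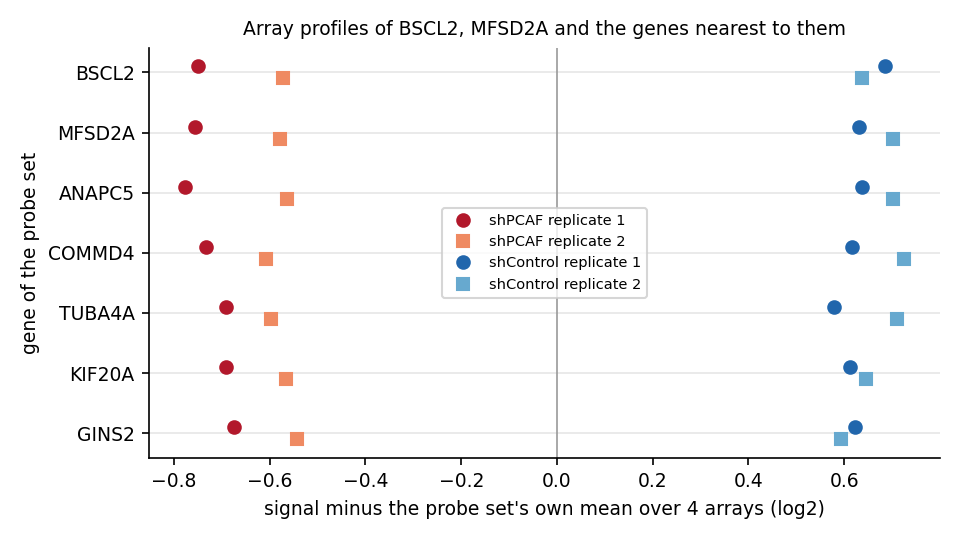
Log2 signal minus the probe set's own mean over the 4 arrays (horizontal axis) for BSCL2, MFSD2A and the 5 other genes nearest to them (rows), with a marker for each array. In every row the shPCAF arrays lie below 0 with replicate 1 the lower, and the shControl arrays above 0.

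The fall of both genes was larger on shPCAF replicate 1 than on shPCAF replicate 2. Against the shControl mean, BSCL2 was at -1.41 on shPCAF replicate 1 and -1.23 on shPCAF replicate 2, and MFSD2A was at -1.42 and -1.24 on the same arrays. The gap between the shPCAF arrays was 0.18 for each gene. Of the 218 named falls, 141 (64.7%) were likewise smaller on shPCAF replicate 2, with medians of -0.89 on replicate 1 and -0.83 on replicate 2. Of the 493 named rises, 232 (47.1%) were smaller on shPCAF replicate 2, with medians of 0.94 and 0.95. What part this gap between the shPCAF arrays has in the falls was not tested.

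**Figure D3:**
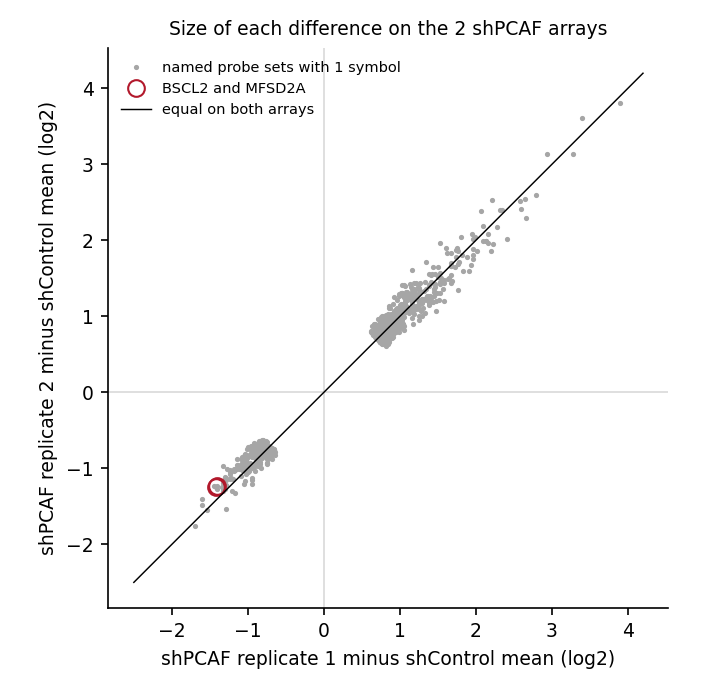
Log2 signal on shPCAF replicate 2 (vertical axis) against that on shPCAF replicate 1 (horizontal axis), each minus the shControl mean, for the 711 named probe sets with a single symbol; the line marks equal values. BSCL2 and MFSD2A (open circles, overlapping) lie just above the line, at -1.23 and -1.24 on replicate 2.

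Other genes of lipid metabolism in the table went both ways. Over 11 lists of lipid genes and related families, 20 of 367 genes had a probe set with a single symbol in the table. Of these, 8 were lower and 12 higher in shPCAF cells, BSCL2 and MFSD2A included. The table names 2.28% of all probe sets on the array, a share of probe sets and not of genes. Whether any list was named more often than other genes was not tested. All 20 passed limma's test (adjusted p below 0.05), which is no independent evidence, the table having been selected on the same arrays. Their median log2 difference was 0.75, beside -0.05 over all probe sets. The median was 0.81 over the 711 named probe sets with a single symbol, of which 218 were lower and 493 higher. No named probe set had an absolute difference below 0.70. The medians of named probe sets thus follow largely from the counts of rises and falls and give no typical size of change. Of the other 347 genes, 1 is named in the table on a probe set of several symbols and 346 are not named in it, and their levels were not analysed here. BSCL2 and MFSD2A had the largest falls of the 20. The lists do not cover every lipid gene that the table names, so these counts and this order depend on the choice of lists.

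Of the 40 genes of lipid droplet formation and turnover, 3 were in the table, 2 lower and 1 higher. TMT1B (listed as METTL7B), a methyltransferase-like protein found on lipid droplets, had log2 signals of 9.10 and 9.33 on the shPCAF arrays, against 9.97 and 10.18 on the shControl arrays, a 1.81-fold fall. PLIN3, a perilipin that coats nascent droplets, had 11.65 and 11.68 on the shPCAF arrays, against 10.93 and 10.92 on the shControl arrays, a 1.67-fold rise. The seipin gene and the perilipin gene thus moved in opposite directions. BSCL2 was also the 1 gene named of 17 in the list of inherited lipodystrophy. Of the 36 genes of glycerolipid and triacylglycerol synthesis 1 was named, CDS1, which makes CDP-diacylglycerol, and it was 1.70-fold higher.

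Among lipid transport genes, 2 of 44 were in the table and both were lower. Beside MFSD2A this was SPNS1, a lysosomal transporter that exports lysophospholipids. SPNS1 had log2 signals of 9.32 and 9.52 on the shPCAF arrays, against 10.07 and 10.30 on the shControl arrays, a 1.69-fold fall. MFSD2A was taken from the table as a listed fall, so SPNS1 is the 1 further gene that this list adds. For SPNS1 the groups were closer than for MFSD2A, the nearest arrays being 1.46-fold apart. A list of MFSD family genes and some related transporters, which does not cover the whole major facilitator superfamily, had 3 of 31 named. SLC68A1 (listed as TMEM180 and also known as MFSD13A) was 1.86-fold lower and MFSD6 1.70-fold higher, so the list had 2 falls and 1 rise.

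The 3 named genes of phospholipid synthesis and remodelling, of 40 listed, were all higher. PNPLA8, a calcium-independent phospholipase A2, had log2 signals of 9.18 and 9.46 on the shPCAF arrays, against 8.01 and 8.30 on the shControl arrays, a 2.24-fold rise. SERINC1, a member of the serine incorporator family, was 1.84-fold higher, and GDPD1, a lysophospholipase D, was 1.71-fold higher. Of the 38 sphingolipid genes, SGMS1, a sphingomyelin synthase, was 1.83-fold higher and SGPL1, the sphingosine-1-phosphate lyase, 1.67-fold higher, whereas SMPD4, a neutral sphingomyelinase, was 1.64-fold lower. FADS3, a member of the fatty acid desaturase family by sequence, was the 1 gene named of the 36 listed under fatty acid synthesis, elongation and desaturation. It was 1.70-fold higher. ECI1 (listed as DCI), an enoyl-CoA isomerase of mitochondrial fatty acid oxidation, was the 1 of 42 in its list named by a probe set of a single symbol and was 1.92-fold higher.

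The sterol pathway had named genes on both sides. ACAT2, the cytosolic acetyl-CoA acetyltransferase that begins sterol synthesis, had log2 signals of 8.07 and 8.29 on the shPCAF arrays, against 9.37 and 9.24 on the shControl arrays, a 2.18-fold fall. It was the 1 gene named of 22 in sterol synthesis. Of 31 transcriptional regulators of lipid genes, 3 were named, 1 lower and 2 higher. INSIG1, which retains the SREBP precursor in the endoplasmic reticulum when sterols are plentiful, was 2.01-fold lower, at 9.04 and 9.15 on the shPCAF arrays, against 10.18 and 10.02 on the shControl arrays. Its paralogue INSIG2 was 1.85-fold higher, at 8.07 and 8.18 on the shPCAF arrays, against 7.20 and 7.27 on the shControl arrays. SREBF2, the SREBP of the sterol pathway, was 1.76-fold higher. The paralogues INSIG1 and INSIG2 thus moved in opposite directions.

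**Figure D4:**
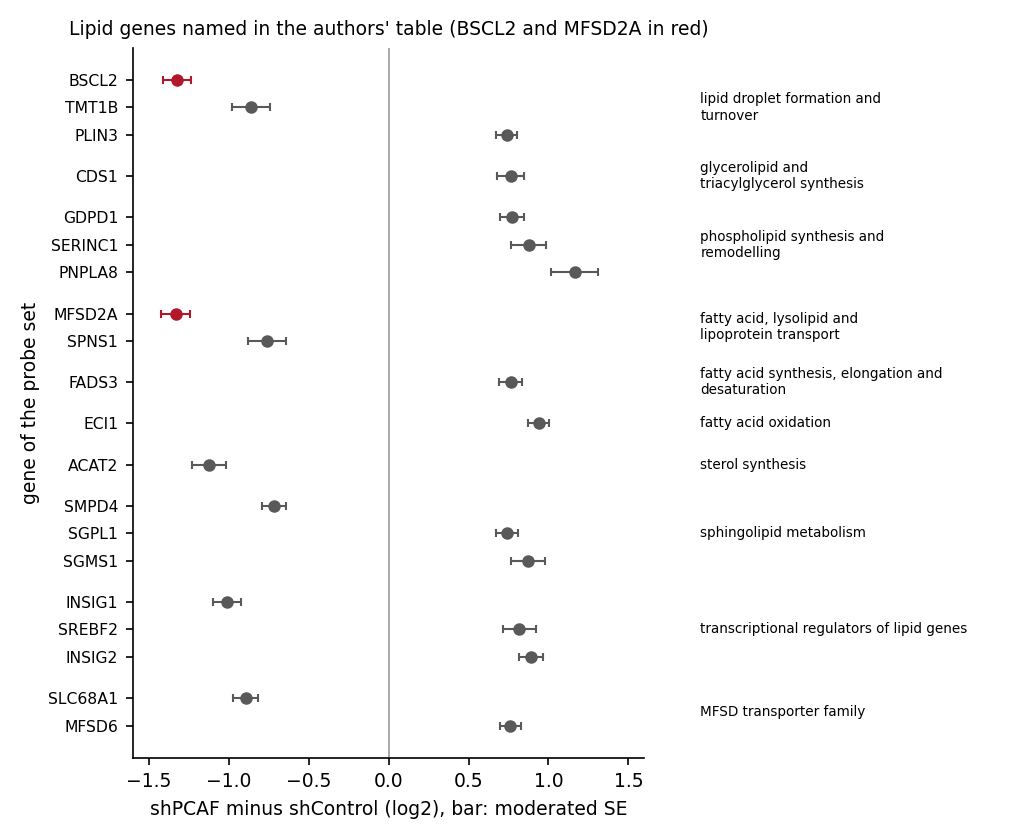
Log2 difference of shPCAF minus shControl (horizontal axis, bars for moderated SE), with BSCL2 and MFSD2A in red. Shown, grouped by list, are the 20 genes of the lipid lists that the table names by a probe set of a single symbol. A gene of several lists is drawn once. The falls range from -1.33 to -0.72 and the rises from 0.74 to 1.16.

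Genes beside BSCL2 and MFSD2A were not named in the table. Of the 5 protein-coding genes on each side in RefSeq order (assembly GRCh38.p14), 0 of 10 around BSCL2 and 0 of 10 around MFSD2A were, against 2.28% of all probe sets on the array. Absence from the table is no measurement of a gene. In the same annotation GNG3, a G protein gamma subunit gene on the opposite strand, and the read-through transcript HNRNPUL2-BSCL2, on the same strand, overlap BSCL2, and the pseudogene RPS2P12 overlaps MFSD2A. The part of the read-through transcript in the BSCL2 signal, and that of the pseudogene in the MFSD2A signal, was not tested. Markers of the cell type were counted only where a probe set with a single symbol named them. On such probe sets 2 of 13 epithelial genes were named, CDH1 (2.14-fold higher) and CLDN7 (1.69-fold higher). None of 6 adipocyte markers, 6 macrophage markers and 6 endothelial markers was named on such a probe set. The fibroblast list had ACTA2 (1.82-fold higher) and TAGLN (1.66-fold lower), and CD22 (2.91-fold higher) was the 1 lymphocyte marker so named. Markers on probe sets of several symbols were not looked for.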

How the data were processed

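Total RNA was hybridised to 4 single-colour arrays, 2 of shPCAF and 2 of shControl cells, grouped by their titles. Each deposited value is the log2 signal of a probe set, the scale being read from the range (3.62 to 14.21). The submitters' processing notes name Affymetrix Expression Console and limma, with no role or version. How signals were summarized and normalized, and on which genome build, is not stated in the sources used here, so no probe set has coordinates. Background and scan batches were not checked, as no scanner file was used. The number of arrays limits the precision. No 2 arrays were identical, and the labels do not tell whether replicates were separate cultures; a p-value here thus measures a spread between arrays that may be technical.

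The authors' deposited table gives for each line a probe set, a symbol, a score headed fold change and an unadjusted p-value, with no test stated. It was the source of gene names, updated where a symbol matched the synonym of 1 RefSeq gene. Of its 759 probe sets 711 had 1 symbol, and no gene was named from the other 48.

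Differences were fitted with limma 3.58.1 (R 4.3.3) over all 33297 probe sets, without covariates, and adjusted by Benjamini-Hochberg. The fit was tested on simulated data. The members, gene lists, motifs and tests were chosen with earlier results of these data known. The genes named are BSCL2, MFSD2A, the 4 named genes nearest to each in profile, every gene of the lipid lists with a single-symbol probe set in the table, and flanking genes in the table. Markers, GNG3, RPS2P12 and HNRNPUL2-BSCL2 stand outside that rule. As alternatives, arrays were quantile normalized or median centred, dim or undescribed probe sets or single arrays were left out, and a replicate block or a trended robust prior was fitted.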

Additional observations from a re-analysis of the deposited data

How the results depend on the processing

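The log2 difference of BSCL2 stayed between -1.35 (quantile normalization) and -1.26 (median centring), and that of MFSD2A between -1.37 and -1.27 under the same settings, shifts smaller than the SD between replicates. Leaving out each array in turn gave -1.41 to -1.23 for BSCL2 and -1.42 to -1.24 for MFSD2A. With 2 arrays per group, such a shift cannot exceed the pooled SD, so these ranges are no evidence of stability. The count of probe sets called by limma, 4294 as reported, ranged from 0 to 2363 when 1 array was left out, with a single array taken to vary like the other group, and a smaller number of arrays is part of those settings' construction. It was 5709 over the probe sets at or above the median signal, 5319 without the 4201 probe sets of low identifiers and 4665 with a trended robust prior. Median centring turned the split to 3012 higher and 1419 lower (68.0% higher), against 2346 and 1948 (54.6% higher) on the values as deposited. It moved the median of all probe sets to 0.02, against -0.05. The replicate number as a block gave 4584 calls and left both falls at -1.32 and -1.33; deviations of same-numbered arrays correlated at 0.25 over probe sets, and the labels give no shared origin for a number. The 23 other named genes kept their direction in 46 of 46 values under quantile normalization and median centring, and 8 of these moved by more than the SD between replicates. With 2 arrays per group, no group could be checked for an outlying array. Whether any signal was above background was not measured.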
